A study of Mus musculus with 16 samples.

Results

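The comparison of Atm+/- with Atm+/+ testes used 8 of the series' 16 amplicon libraries, 4 of each genotype. They were taken by their genotype labels and paired by amplicon number, so that each pair covers the same stretch of DNA. All animals were C57BL/6 adults of 2 to 5 months. Atm+/- mice carry 1 working copy of Atm, Atm+/+ mice carry both copies, and the labels name no other allele or agent in either group. The other 8 libraries, from Atm-/- mice that lack ATM and from Spo11-/- mice that lack meiotic double-strand breaks, are given beside the pair as reference levels only. DNA came from whole-testis cell suspensions. The labels call the cells spermatocytes and name no sorting step, and DNA reads hold no cell markers against which to check this. All of each mutant suspension but only a portion of each wild-type suspension was lysed, and the labels do not say how Atm+/- was handled. The labels give neither the number of animals nor the number of genomes in a PCR, so each p-value below covers just the variation from library to library, part or all of which may be technical.

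SPO11 is the enzyme that cuts chromosomes at hotspots in meiotic prophase to start recombination. ATM is a kinase that is activated by these breaks and restrains further cutting nearby, including on the same DNA molecule. A deletion can form when broken ends are joined without a repair template, and joins of this kind often fall at microhomology, a few identical bases present at both ends of the lost segment. Losing 1 copy of Atm asks whether deletions at a hotspot depend on gene dosage.

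The 4 overlapping amplicons, each 574 to 579 bp long, together cover 869 bp of mouse chromosome 1 (mm10). Amplicon 1 is chr1:33764688-33765262, amplicon 2 is chr1:33764797-33765375, amplicon 3 is chr1:33764915-33765491 and amplicon 4 is chr1:33764983-33765556. The stretch lies within the span of Zfp451, a protein-coding zinc finger gene at chr1:33761541-33815602 in the RefSeq table of GRCm38.p6. Exons and introns were not analysed here. Positions are the deposited ones, and it could not be checked if their count starts from 0 or from 1. A distinct deletion is 1 combination of left-most start and length in 1 library, and its rate is the number of distinct deletions per 1e6 reads. The files list deletions of at least 2 bp with no insertion.

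The sequences below carry the comparison because they are the deletions that recurred across genotypes or had the most reads in 1 genotype. They are the amplicon consensus read from the deposited aligned sequences, 5′ to 3′ on the plus strand, with 15 bases of flank on each side of the deleted bases. Capitals mark the microhomology at the 2 ends of the deletion. The deletion found in the most libraries of the pair removes 31 bp at chr1:33765045-33765075 between copies of an 8-base repeat, and all 4 amplicons cover it. A deletion of 22 bp at chr1:33765345-33765366 joins a 9-base repeat, one of 45 bp at chr1:33765369-33765413 a 6-base repeat and one of 14 bp at chr1:33765456-33765469 a 7-base repeat.
31-bp deletion: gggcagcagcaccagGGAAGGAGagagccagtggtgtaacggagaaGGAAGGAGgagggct
22-bp deletion: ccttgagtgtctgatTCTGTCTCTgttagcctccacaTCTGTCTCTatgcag
45-bp deletion: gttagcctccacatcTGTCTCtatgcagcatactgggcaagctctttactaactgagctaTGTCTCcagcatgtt
14-bp deletion: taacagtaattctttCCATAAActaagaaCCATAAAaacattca
The 187-bp deletion at chr1:33765180-33765366 and the 191-bp deletion at chr1:33765176-33765366 share a right end. They are shown by 30 bases at each end.
187-bp deletion, left end: tgtctcgcccctctgTCTGTCTCcatagac
187-bp deletion, right end: ctgttagcctccacaTCTGTCTCtatgcag
191-bp deletion, left end: acactgtctcgccccTCTGTCTgtctccat
191-bp deletion, right end: ctgttagcctccacaTCTGTCTctatgcag
The named deletions found in only 1 genotype of the pair had 0 to 3 bp of microhomology. The 26-bp deletion at chr1:33764989-33765014 was found in Atm+/+ and the 34-bp deletion at chr1:33765160-33765193 in Atm+/-. The 166-bp deletion at chr1:33765022-33765187 was found in Atm+/- and is shown by its ends.
26-bp deletion: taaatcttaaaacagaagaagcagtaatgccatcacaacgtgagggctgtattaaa
34-bp deletion: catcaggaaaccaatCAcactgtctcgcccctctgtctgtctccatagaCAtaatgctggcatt
166-bp deletion, left end: cacaacgtgagggctgtattaaagggcagc
166-bp deletion, right end: ccctctgtctgtctccatagacataatgct

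The libraries differed in more than genotype. Depth ran from 3.25 to 5.33 times 1e6 reads, so that 1 deletion is worth 0.187 to 0.307 per 1e6 reads. The library names carry a set letter whose meaning the labels do not give. Set B holds Atm+/+ amplicons 1 and 2 and Atm+/- amplicons 3 and 4, set C holds Atm+/+ amplicons 3 and 4, and set D holds Atm+/- amplicons 1 and 2. Each amplicon pair therefore has 1 set B library, and each genotype has 2. In set B, 78.8% to 96.3% of the reads with deletions of at least 11 bp had a deletion end within the 41-bp stretch at the amplicon's middle, and in sets C and D 0% to 15.8% did. Undetermined bases were present in 3.91% to 24.1% of those reads in set B and in none in sets C and D. The median number of substituted bases in a listed sequence with such a deletion was 5 to 6 in set B and 0 to 2 elsewhere. Values are therefore given for all listed sequences and for those with no substituted base.

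Deletions of at least 11 bp did not differ between Atm+/- and Atm+/+ beyond the spread between libraries. Counting all listed sequences, Atm+/- held 16, 18, 79 and 66 distinct deletions in amplicons 1 to 4, 179 in all. Atm+/+ held 64, 86, 12 and 6, 168 in all. The high libraries were amplicons 3 and 4 in Atm+/- and amplicons 1 and 2 in Atm+/+, which are the 4 libraries of set B, and the genotypes overlapped. The rates per 1e6 reads were 4.43, 4.46, 14.8 and 14.0 in Atm+/- (mean 9.43 ± 5.77, SD, n = 4) and 12.6, 19.5, 3.57 and 1.84 in Atm+/+ (9.37 ± 8.24, SD, n = 4). The paired difference, on the log2 scale with 0.5 added to each count, was -1.47, -2.10, 2.00 and 2.82 in amplicons 1 to 4, with a mean of 0.31 (exact two-sided sign-flip permutation p = 0.875). The smallest p that 4 pairs allow is 0.125. Atm+/- was lower in amplicons 1 and 2 and higher in amplicons 3 and 4.

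The difference followed the set rather than the genotype in its sign. The set B library of each pair was higher in 4 of 4 amplicons, by a mean of 4.28-fold (exact permutation p = 0.125, the smallest possible). Between set B libraries only, the mean log2 rate of Atm+/- minus that of Atm+/+ was -0.12. Between libraries outside set B it was 0.75. A fit with amplicon, genotype and set terms gave -0.03, with no error computed. It also used the Spo11-/- libraries, which are in sets C and D and not in set B. Within a set the genotypes lie on different amplicons, so in those values genotype and amplicon cannot be told apart.

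**Figure D1:**
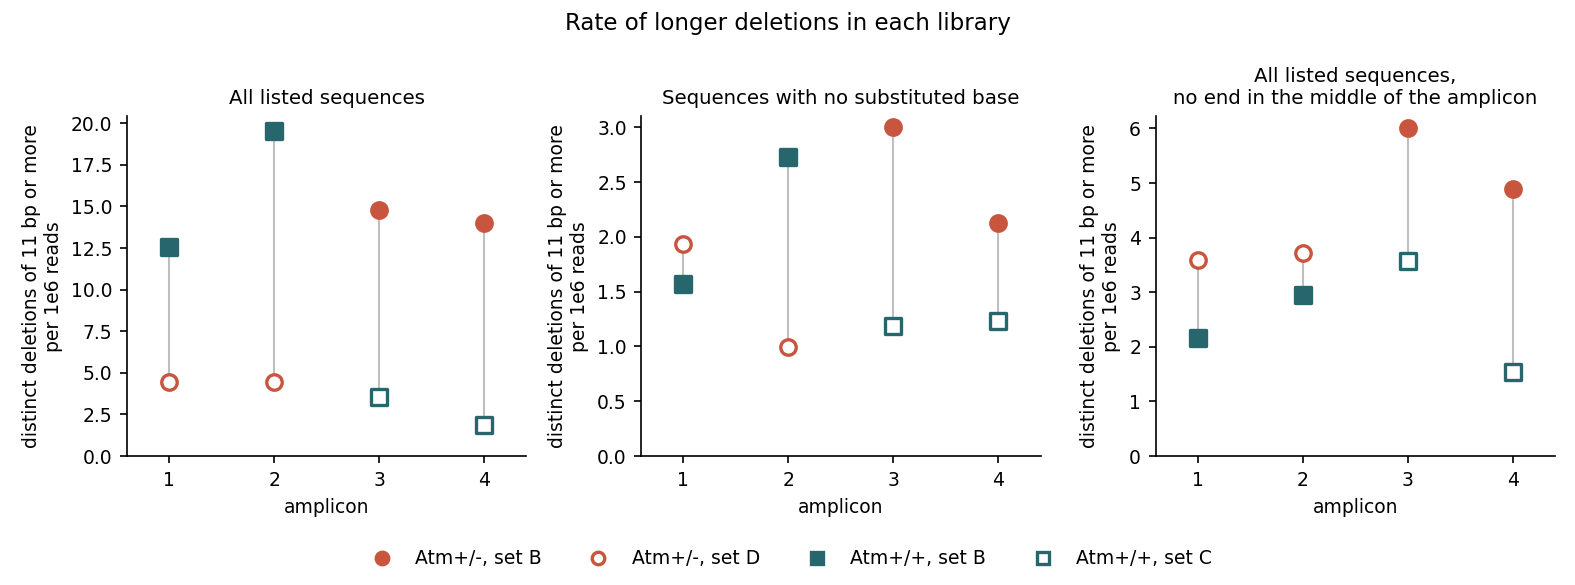
Distinct deletions of at least 11 bp per 1e6 reads (vertical axis, from 0) in each amplicon library of Atm+/- (circles) and Atm+/+ (squares), for all listed sequences, for those with no substituted base, and for all without a deletion end in the middle of the amplified DNA. Filled symbols are set B libraries and grey lines join the 2 libraries of an amplicon; with all listed sequences the filled symbol is the higher of each pair, and in the last panel Atm+/- is.

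Deletions in sequences with no substituted base were few in both genotypes and fewer than in the Atm-/- libraries. Atm+/- had 7, 4, 16 and 10 such deletions, 37 in all, and Atm+/+ had 8, 12, 4 and 4, 28 in all. The rates were 1.94, 0.99, 3.00 and 2.13 per 1e6 reads in Atm+/- (2.01 ± 0.82, SD, n = 4) and 1.57, 2.73, 1.19 and 1.23 in Atm+/+ (1.68 ± 0.72, SD, n = 4). Atm+/- was higher in 3 of 4 amplicons and the groups overlapped. The mean log2 difference was 0.22 (exact two-sided sign-flip permutation p = 0.75). Summed over libraries, the ratio of the rates was 1.20, with a 95% exact interval of 0.717 to 2.04 that covers counting error only. PCR reads without molecular identifiers are not independent molecules, so this and the other intervals and limits here leave out amplification. Under the same rule Atm-/- libraries had 9.57 to 13.0 deletions per 1e6 reads and Spo11-/- libraries 0.30 to 2.52. The Atm-/- libraries form a set of their own, whose names carry no letter, so for them genotype and set cannot be told apart. Of their reads with deletions of at least 11 bp, 52.4% to 71.0% held undetermined bases and 67.7% to 78.7% had an end in the middle stretch. All 8 Atm+/- and Atm+/+ libraries lay below the lowest Atm-/- library, while their range overlapped that of the libraries without SPO11 breaks.

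Read totals differed more between libraries than distinct deletions did. Reads with a deletion of at least 11 bp numbered 19, 27, 179 and 170 in Atm+/- and 323, 734, 18 and 8 in Atm+/+. The rates were 5.26, 6.69, 33.6 and 36.1 per 1e6 reads in Atm+/- and 63.3, 167, 5.36 and 2.46 in Atm+/+. The 734 reads of Atm+/+ amplicon 2 include 218 of the 31-bp deletion and 126 of another deletion of 31 bp at chr1:33765043-33765073, which had 1 read in Atm+/- amplicon 4. The mean paired log2 difference was -0.44 (exact two-sided permutation p = 0.875), and the set B library was higher in 4 of 4 pairs, by 12.5-fold on average.

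With deletions that end in the amplicon's middle left out, Atm+/- held more distinct deletions in each of the 4 amplicons. The counts were 13, 15, 32 and 23 in Atm+/- and 11, 13, 12 and 5 in Atm+/+. The rates were 3.60, 3.72, 6.00 and 4.89 per 1e6 reads in Atm+/- (4.55 ± 1.13, SD, n = 4) and 2.16, 2.95, 3.57 and 1.54 in Atm+/+ (2.55 ± 0.89, SD, n = 4). Every Atm+/- library was above every Atm+/+ library, although the nearest, at 3.60 and 3.57, were nearly equal. The mean log2 difference was 0.83, or 1.78-fold. The exact two-sided permutation p was 0.125 paired, the smallest possible, and 0.0286 unpaired, the smallest that 4 against 4 allows, without adjustment for the other settings tried. This order was noticed after the values had been seen. Atm+/- stayed higher in 4 of 4 amplicons after merging near-identical deletions (1.77-fold), after rarefaction (1.77-fold) and at 30 bp or more (1.50-fold). The order did not hold under every further restriction. In sequences with no substituted base the excess was 1.30-fold, higher in 3 of 4 amplicons (exact paired permutation p = 0.5). With deletions seen in at least 2 reads it was 0.96-fold, higher in 2 of 4. The Spo11-/- libraries had 2.74 ± 1.11 and the Atm-/- libraries 15.1 ± 3.25 per 1e6 reads under this rule (SD, n = 4 each).

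Short deletions of 2 to 10 bp made up 89.4% of the distinct deletions in Atm+/- and 88.4% in Atm+/+. Their rates were 90.7, 89.4, 82.5 and 79.3 per 1e6 reads in Atm+/- (85.5 ± 5.49, SD, n = 4) and 84.5, 91.3, 70.5 and 64.9 in Atm+/+ (77.8 ± 12.2, SD, n = 4). Atm+/- was higher in 3 of 4 amplicons, by a mean log2 difference of 0.15 (exact two-sided permutation p = 0.25). Without any substituted base the means were 45.9 ± 8.03 and 41.7 ± 2.34 (SD, n = 4 each), a log2 difference of 0.12 (exact permutation p = 0.375). Short deletions varied far less between sets than longer ones: the set B library exceeded its partner by 1.08-fold on average.

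The most frequent short deletions lay in simple repeats, where the polymerase can slip, and did not differ between genotypes beyond the spread between libraries. They are printed with the whole repeat, deleted unit included, in capitals.
4-bp deletion in an AATA repeat: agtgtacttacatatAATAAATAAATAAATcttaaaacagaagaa
3-bp deletion in a GCA repeat: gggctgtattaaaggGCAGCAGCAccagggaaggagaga
2-bp deletion in a CA repeat: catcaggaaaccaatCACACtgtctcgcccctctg
The 4-bp deletion at chr1:33764964-33764967 is covered by amplicons 1 to 3. It had 1387, 1547 and 1341 reads per 1e6 in Atm+/- and 1041, 1137 and 1393 in Atm+/+, a mean ratio of 1.20 (exact two-sided permutation p = 0.5, where 3 pairs cannot go below 0.25). Atm+/- was higher in amplicons 1 and 2 and lower in amplicon 3. The 3-bp deletion at chr1:33765032-33765034 had 45.6 ± 3.20 reads per 1e6 in Atm+/- and 43.8 ± 5.83 in Atm+/+ (SD, n = 4 each). The 2-bp deletion at chr1:33765160-33765161 had 25.5 ± 5.53 and 27.5 ± 2.30 (SD, n = 4 each). For both, Atm+/- was higher in 2 of 4 amplicons, a split that followed the sets. The set B library was lower in every pair for the 3-bp deletion, though by little in amplicon 4 (48.5 against 48.9). It was higher in every pair for the 2-bp deletion, and lower in each of the 3 pairs for the 4-bp deletion.

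Deletion length did not separate the genotypes. Among all deletions of at least 11 bp the median length was 19.5, 57, 33 and 29.5 bp in Atm+/- and 26, 30, 43 and 38 bp in Atm+/+ (mean difference 0.5 bp, exact two-sided permutation p = 1). With no substituted base the medians were 37, 73.5, 37.5 and 38 bp in Atm+/- and 29, 44, 168.5 and 75.5 bp in Atm+/+. The long medians of Atm+/+ amplicons 3 and 4 rest on 4 deletions each. The mean difference was -32.8 bp (exact permutation p = 0.625), and Atm+/- was longer in 2 of 4 amplicons.

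By length class, the excess of set B lay below 100 bp. Deletions of 11 to 29 bp numbered 9, 4, 28 and 33 in Atm+/- and 47, 42, 3 and 2 in Atm+/+. Those of 30 to 99 bp numbered 3, 8, 46 and 23 against 12, 40, 4 and 2. Those of 100 bp or more numbered 4, 6, 5 and 10 against 5, 4, 5 and 2, with no such split between sets. In sequences with no substituted base, deletions of 11 to 29 bp numbered 3, 1, 4 and 2 in Atm+/- and 4, 1, 0 and 0 in Atm+/+. After division by depth that class was higher in Atm+/- in 4 of 4 amplicons, by a mean log2 difference of 1.14 (exact two-sided permutation p = 0.125, the smallest possible; 0.875 after Benjamini-Hochberg adjustment over 10 length-class comparisons). Here and below, the limit for a 0 count is 3 divided by the depth, which is not the exact 95% interval used elsewhere. By that limit the 0 counts in Atm+/+ amplicons 3 and 4 allow rates of up to 0.893 and 0.922 per 1e6 reads. This class was therefore at the limit of the depth.

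**Figure D2:**
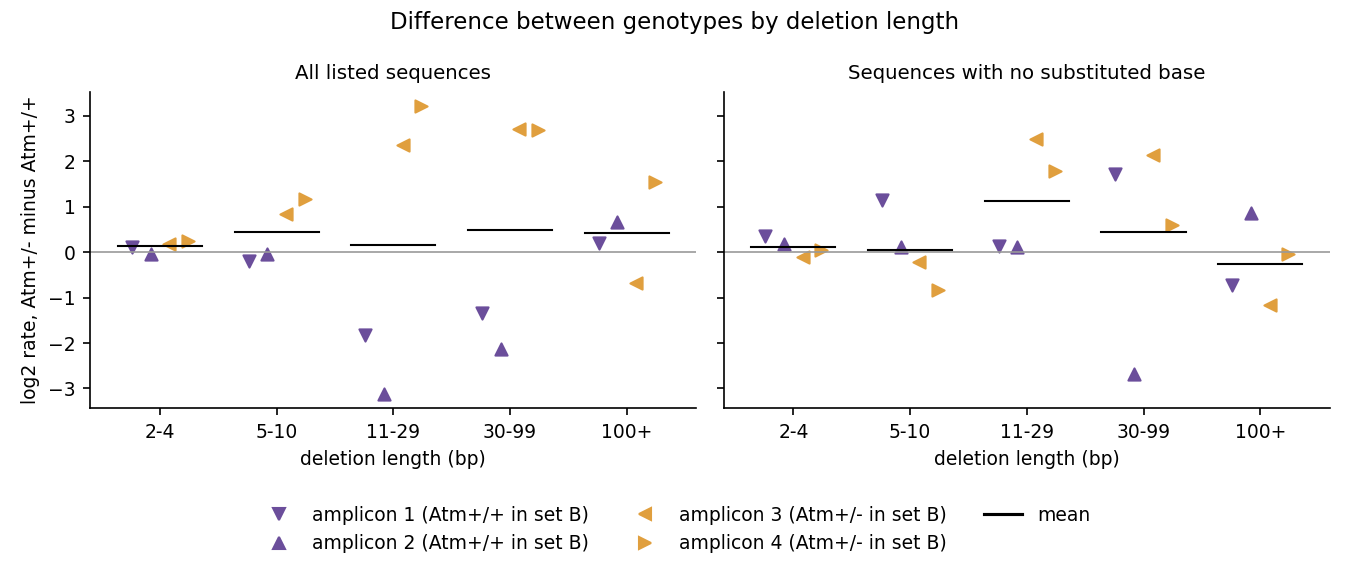
Log2 rate of distinct deletions in Atm+/- minus that in Atm+/+ (vertical axis) by deletion length (horizontal axis, bp), for all listed sequences and for those with no substituted base. Each symbol is 1 amplicon pair, coloured by which genotype is in set B, and black lines are means; with all listed sequences the 2 colours part on either side of 0 at 11 to 29 bp and at 30 to 99 bp.

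Microhomology at the junctions was measured as the number of bases by which a deletion can slide without changing its product. Among all deletions of at least 11 bp, 56.3%, 33.3%, 25.3% and 30.3% had at least 2 bp in Atm+/- amplicons 1 to 4, and 21.9%, 24.4%, 75.0% and 66.7% in Atm+/+. The set B library had the lower share in 4 of 4 pairs, and the genotypes overlapped. The mean difference was -10.7 percentage points (exact two-sided permutation p = 0.625). With no substituted base the shares were 42.9%, 50.0%, 56.25% and 50.0% in Atm+/- (49.8 ± 5.47, SD, n = 4) and 62.5%, 41.7%, 75.0% and 75.0% in Atm+/+ (63.5 ± 15.7, SD, n = 4). Atm+/- was lower in 3 of 4 amplicons, by a mean of -13.8 points (exact permutation p = 0.25). Counted once per genotype, 18 of 36 deletions in Atm+/- (50.0%, exact Clopper-Pearson 95% interval 32.9% to 67.1%) and 12 of 24 in Atm+/+ (50.0%, 29.1% to 70.9%) had at least 2 bp. At least 4 bp was found at 9 of 36 (25.0%) and 8 of 24 (33.3%). By library, the mean difference in that share was -28.1 points (exact permutation p = 0.25), and -18.5 points among all listed sequences (exact permutation p = 0.5). All deletions without an end in the middle were also counted once per genotype. At least 4 bp was found at 18 of 81 in Atm+/- (22.2%, 13.7% to 32.8%) and 15 of 36 in Atm+/+ (41.7%, 25.5% to 59.2%). These intervals pool libraries of different sets, cover counting error only and do not test the difference. By library, the share of deletions without an end in the middle that had at least 2 bp was lower in Atm+/- in 4 of 4 amplicons. The mean difference was -19.1 points (exact two-sided permutation p = 0.125, the smallest possible), without adjustment for the other settings tried. Its Atm+/+ amplicon 4 value rests on 5 deletions. Leaving out deletions found in both genotypes instead, the mean difference among all listed sequences was -2.66 points (exact paired permutation p = 0.875). With no substituted base it was -12.1 points (exact paired permutation p = 0.125).

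**Figure D3:**
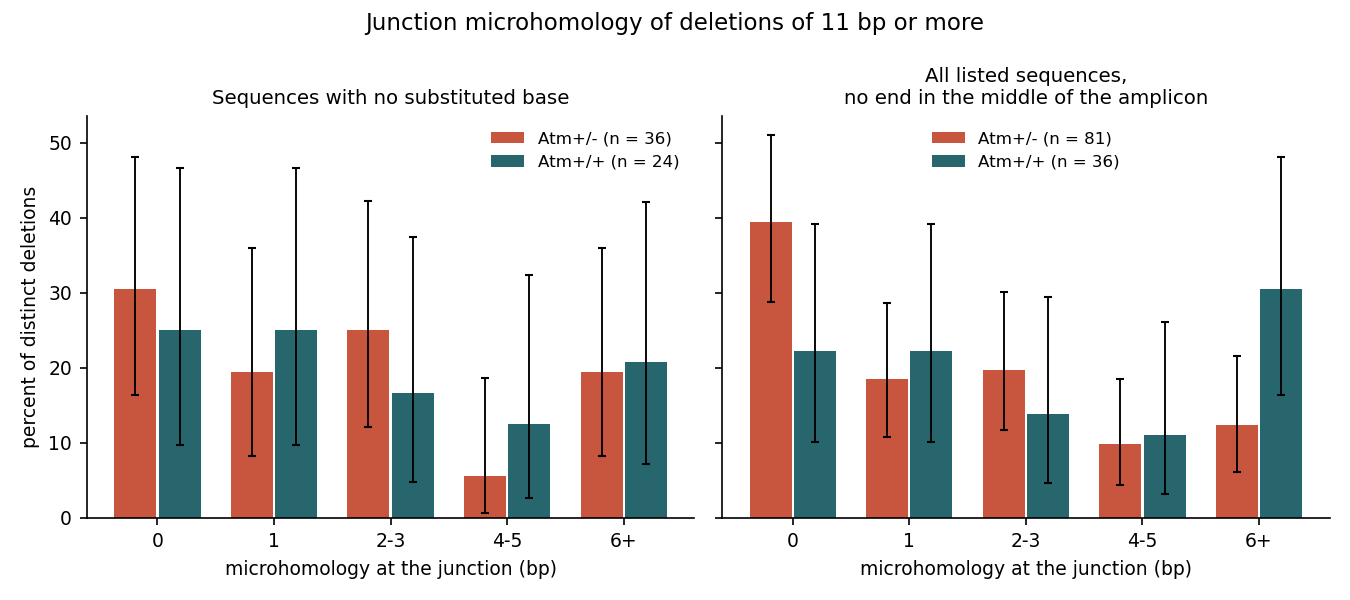
Percent of distinct deletions of at least 11 bp by microhomology length (bp), each deletion counted once per genotype, for sequences with no substituted base and for all sequences without a deletion end in the middle of the amplified DNA. Bars start at 0 and error bars are exact 95% binomial intervals that cover counting error only; in the first panel 18 of 36 Atm+/- and 12 of 24 Atm+/+ deletions had at least 2 bp.

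With all listed sequences, deletions of at least 11 bp lay further left of their amplicon's centre in Atm+/- than in Atm+/+ in each of the 4 amplicons. Without ends in the middle stretch the order no longer held in all 4 amplicons, while the mean difference was -48.9 bp (exact paired permutation p = 0.25). The order also rests on few deletions in Atm+/+ amplicons 3 and 4. The median deletion midpoint, measured from the centre of its amplicon, was -20.5, -28.25, -26 and -19.75 bp in Atm+/- and 20, -19.25, 111.25 and 38.75 bp in Atm+/+. The mean difference was -61.3 bp (exact two-sided permutation p = 0.125 paired and 0.0286 unpaired, the smallest possible in each case, and 0.917 for the paired p after Benjamini-Hochberg adjustment over 11 results). The Atm+/+ values of amplicons 3 and 4 rest on 12 and 6 deletions. The difference was -19.4 bp with the set as a term, -23.25 bp within set B, -99.4 bp outside it and -21.8 bp among deletions with at least 2 reads (exact paired permutation p = 0.875). For sequences with no substituted base the mean difference was -28.4 bp, with Atm+/- further right in 3 of 4 amplicons (exact paired permutation p = 1). In windows of 50 bp, the highest paired difference in sequences with no substituted base, among windows covered by at least 3 amplicons, was at chr1:33765238-33765287. There 12 Atm+/- and 4 Atm+/+ deletions overlapped the window, at rates of 0.853 (exact 95% counting interval 0.441 to 1.49) and 0.363 (0.0989 to 0.930) per 1e6 reads. The lowest was at chr1:33764988-33765037, with 4 and 10 deletions at 0.226 (0.0616 to 0.579) and 0.621 (0.298 to 1.14). The intervals overlapped in both windows, which is not a test of the difference. With all listed sequences the first window held 72 and 7 deletions, and it overlaps the middle stretch of amplicon 4, whose Atm+/- library is in set B. The second held 19 and 44 and overlaps the middle stretch of amplicon 1, whose Atm+/+ library is in set B.

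**Figure D4:**
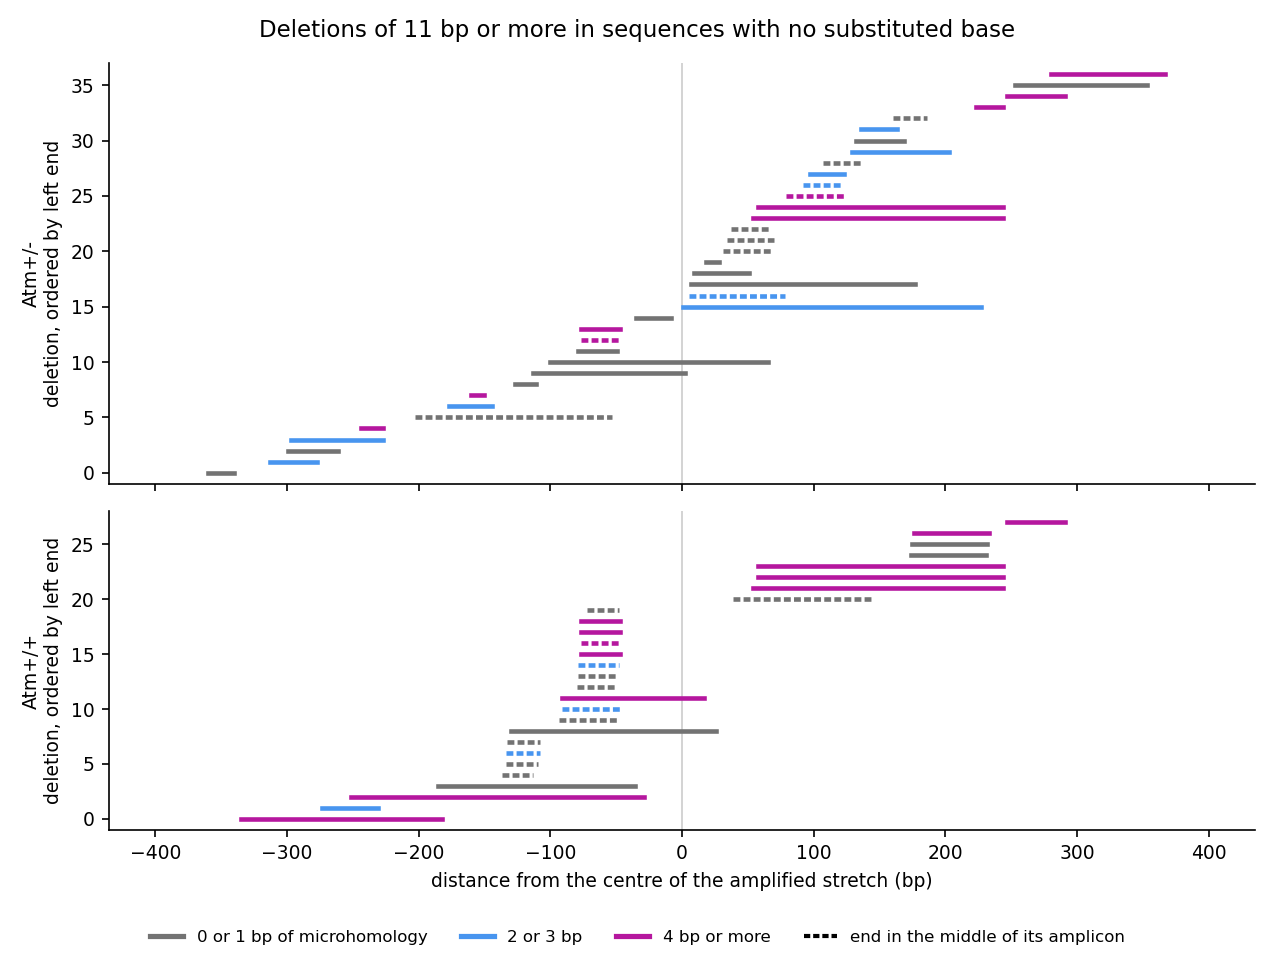
Deletions of at least 11 bp in sequences with no substituted base, 37 in Atm+/- and 28 in Atm+/+, drawn to scale and ordered by their left end. The horizontal axis is distance in bp from the centre of the 869-bp stretch, each line is 1 distinct deletion in 1 library, colour gives its microhomology and broken lines have an end in the middle stretch of their amplicon. Most broken lines of Atm+/+ lie left of the centre and most of those of Atm+/- lie right of it. Of the broken lines, 19 are from set B and 3 from sets C and D. Set B is amplicons 1 and 2 in Atm+/+ and amplicons 3 and 4 in Atm+/-, so genotype and amplicon cannot be told apart in this split.

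Few of the longer deletions were found in both genotypes, and their microhomology ranged from 0 to 9 bp. Of 175 different deletions of at least 11 bp in Atm+/- and 161 in Atm+/+, 15 were found in both, which is 8.57% and 9.32%. Among sequences with no substituted base, 5 were found in both, 13.9% of 36 and 20.8% of 24. Compared within amplicons, 12 were in both, 6.70% of 179 in Atm+/- and 7.14% of 168 in Atm+/+. Without ends in the middle stretch 11 were, 13.3% of 83 and 26.8% of 41. Middle-stretch ends were mostly in set B, which each amplicon has in 1 genotype only. Being found in 1 genotype and being in set B therefore cannot be told apart for them. At least 4 bp of microhomology was present at 9 of the 15 deletions of both genotypes (60%, median 6 bp) and at 20 of the 306 found in only 1 genotype (6.54%, median 1 bp). The other 6 of the 15 had 0 or 1 bp. Deletions with a middle-stretch end, 96 of 179 in Atm+/- and 127 of 168 in Atm+/+, were not left out of these shares. Without them, at least 4 bp was found at 22.2% of 81 deletions in Atm+/- and 41.7% of 36 in Atm+/+. Those values include deletions of both genotypes, and the contrast of shared with unshared deletions was not computed without middle-stretch ends. Of the 15, 4 touched or abutted a primer site in a library that held them. Over all deletions of at least 11 bp, 7 of 179 in Atm+/- and 5 of 168 in Atm+/+ did. Short deletions were shared more widely. Within amplicons, 911 deletions of 2 to 10 bp were in both genotypes, 60.7% of 1502 in Atm+/- and 71.1% of 1281 in Atm+/+.

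The 31-bp deletion between the GGAAGGAG copies was present in 6 of the 8 libraries, more than any other deletion of at least 11 bp. Coverage differs, however, since all 4 amplicons cover this deletion. Only 3 amplicons cover the 22-bp, 187-bp and 191-bp deletions and only 2 cover the 45-bp and 14-bp deletions. Each of those was in 3 libraries of the pair. The 31-bp deletion had 1, 218, 1 and 1 reads in Atm+/+ amplicons 1 to 4 and 0, 1, 0 and 5 reads in Atm+/-. The 218 reads came from the amplicon in which its right end lies in the middle stretch, in a set B library, and 22 of them had no substituted base. The other 5 libraries that held it had 1 to 5 reads. By the limit of 3 reads, the 0 counts in Atm+/- amplicons 1 and 3 allow up to 0.830 and 0.562 reads per 1e6. The same deletion had 1 read in Atm-/- amplicon 3 and 0 reads in the 4 Spo11-/- libraries, which allow up to 0.669 to 1.03 per 1e6, so at this depth its single-read levels cannot be told from 0.

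The TCTGTCTC copies took part in several deletions of both genotypes. The 187-bp deletion had 4 reads in Atm+/- amplicon 3 and 2 and 1 reads in Atm+/+ amplicons 3 and 4. The 191-bp deletion, with the same right end, had 1 read in each of Atm+/- amplicons 3 and 4 and 3 reads in Atm+/+ amplicon 3. The 22-bp deletion had 3 and 2 reads in Atm+/- amplicons 3 and 4 and 2 reads in Atm+/+ amplicon 3. Each thus had 1 to 4 reads wherever it was found, in both genotypes. The 45-bp deletion at the neighbouring TGTCTC copies had 2 reads in Atm+/- amplicon 4, 1 and 2 reads in Atm+/+ amplicons 3 and 4, and 6 reads in Spo11-/- amplicon 4. It was therefore also found where SPO11 was absent, as were the 187-bp and 22-bp deletions, with 1 and 3 reads in Spo11-/- amplicon 4. The 14-bp deletion at the CCATAAA copies had 2 reads in Atm+/- amplicon 4 and 3 and 2 reads in Atm+/+ amplicons 3 and 4, and it touches the reverse primer site of amplicon 3.

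The remaining deletions of both genotypes with the most reads were in amplicon 2. The 58-bp deletion at chr1:33765296-33765353 had 3 reads in Atm+/- and 10 in Atm+/+, and the 58-bp deletion at chr1:33765298-33765355 had 2 and 5. Both lie against the reverse primer site of that amplicon. The 32-bp deletion at chr1:33764820-33764851, near its forward primer, had 7 and 2 reads. All 3 were also present in Spo11-/- amplicon 2, with 1, 2 and 4 reads. The 58-bp deletion at chr1:33765298-33765355 also had 1 read in Spo11-/- amplicon 3 and 1 read in Atm-/- amplicon 3. The reverse primer site of amplicon 3 begins after chr1:33765466, away from this deletion.

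Within the pair, deletions with many reads in only 1 genotype each came from 1 set B library. The 26-bp deletion had 96 reads in Atm+/+ amplicon 1, 14 of them with no substituted base. Atm+/+ amplicon 2 held 72 reads of a 32-bp deletion at chr1:33765043-33765074 and 50 of a 19-bp deletion at chr1:33765097-33765115. Each of these ends in the middle stretch of its own amplicon. The 32-bp deletion also had 4 reads in Atm-/- amplicon 2 and 1 read in Atm-/- amplicon 3. In Atm+/-, the 34-bp deletion had 23 reads in amplicon 3, followed there by a 34-bp deletion at chr1:33765159-33765192 with 21 reads and a 38-bp deletion at chr1:33765153-33765190 with 18 reads. Amplicon 4 held 23 reads of a 14-bp deletion at chr1:33765242-33765255 and 15 of a 24-bp deletion at chr1:33765234-33765257. These 5 also end in the middle of their amplicon, and 1 of their reads, of the 38-bp deletion, had no substituted base. Outside set B, the 166-bp deletion had 3 reads in Atm+/- amplicon 1, all with no substituted base, and no read in any other library. The other 2 deletions named for Atm+/- were in the same library, 21 bp at chr1:33764762-33764782 with 1 read and 37 bp at chr1:33764809-33764845 with 2 reads.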

How the data were processed

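DNA from testis cell suspensions was amplified in 4 overlapping amplicons and sequenced, 1 library per genotype and amplicon. The deposited tables list each aligned sequence with its read count and its percent of reads, per the file headers, whose columns are those of CRISPResso. The sources used here give neither its version nor its settings. The deposited tables hold sequences with a deletion and no insertion, each with a chromosome position. The build mm10 is from the submitters' processing notes. Depth was taken as summed read counts over summed percent. Of 73567 listed sequences, 25 whose aligned length differed from the rest of their amplicon were left out. Each deletion was moved to its left-most position on the amplicon consensus, the most common base at each position (in at least 93.3% of listed sequences outside the outer 20 bp). Genotypes were compared by amplicon with exact two-sided sign-flip permutation tests (16 patterns), with the unpaired test (70 assignments) as an alternative, on log2 rates with 0.5 added to counts. Procedures were tested on simulated data (Python 3.11.15, numpy 2.4.6, scipy 1.17.1, pandas 2.3.3). Alternatives changed the pseudocount, minimum reads and length, merging, rarefaction, the middle stretch and the libraries included. Deletions named are the top 5 by reads of at least 11 bp per genotype, for all sequences and for those with no substituted base, the top 10 of both genotypes and the top 3 short ones. Libraries, measures and rules were chosen with earlier results of these data known.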

Additional observations from a re-analysis of the deposited data

Results flagged for a closer look

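The Atm+/- minus Atm+/+ difference had opposite signs in amplicons 1 and 2 and in amplicons 3 and 4 for 4 measures. Amplicons 3 and 4 minus amplicons 1 and 2 gave 4.20 on the log2 scale for the rate of distinct deletions of at least 11 bp and 7.29 for the reads with such deletions. It gave -64.7 percentage points for the share with at least 2 bp of microhomology, and -103 bp for the median length in sequences with no substituted base. These differences of differences were not tested. The split is also that between set B and the other libraries, which swap genotypes between the amplicon pairs, so amplicon and set cannot be told apart here.

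Of 22 groups of 4 libraries checked for a library far from the other 3, a check in which chance marks about 1 in 20, 2 held one. Atm+/- amplicon 2 had the highest median length in sequences with no substituted base, 73.5 bp from 4 deletions. Atm+/- amplicon 1 had the left-most median midpoint in such sequences, -115 bp from 7 deletions.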

How the results depend on the processing

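Differences are Atm+/- minus Atm+/+. For the rate of deletions of at least 11 bp (0.31 on the log2 scale) the sign turned with at least 2 reads (-0.55), with the set as a term (-0.031) and within set B (-0.12). With no substituted base (0.22) it turned with at least 2 reads (-1.71) and with the set term (-0.055). For reads (-0.44) it turned without ends in the middle (0.62), at 30 bp or more (0.23) and outside set B (0.68). For short deletions (0.15) it turned after merging near-identical deletions (-0.043) and within set B (-0.12). With no substituted base (0.12) it turned with merging (-0.055), the set term (-0.043) and within set B (-0.15). Median length (0.5 bp) turned without ends in the middle (-3.13), with merging (-0.63), without deletions of both genotypes (-16.5) and outside set B (-2.25), and with no substituted base within set B (1.25 bp). The microhomology share turned within set B (4.66 points for all sequences, 1.04 with no substituted base). The comparisons within and outside set B were added after the data were seen. The cause was not tested.

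Without 1 pair at a time, the ranges were -0.52 to 1.12 and, with no substituted base, -0.11 to 0.74 for the rate; -1.85 to 0.95 for reads; 0.10 to 0.21 and 0.04 to 0.20 for short deletions; -8.33 to 4.0 bp and -53.5 to 0 bp for length; -25.7 to 2.31 and -21.1 to -10.02 points for microhomology; and -78.8 to -36.0 bp and -42.7 to 9.0 bp for position. The pairing by amplicon, used throughout, is a replicate block because the same DNA stretch was amplified. Without that block the position difference of -61.3 bp passed the threshold (exact permutation p = 0.0286), and no other of the 11 main results changed side. Outside those 11, the rate of deletions of at least 11 bp without ends in the middle also passed it (exact unpaired permutation p = 0.0286). With at least 2 reads, length, microhomology and position in sequences with no substituted base gave no value, since a library was left with no deletion. With 4 to 16 deletions a library in such sequences, and 4 pairs, only large differences could be seen.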

Other observations

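Deletions of at least 11 bp in the Atm-/- libraries were longer than in either genotype of the pair when all listed sequences were counted. Their median length per library was 111.5 to 129 bp, against 19.5 to 57 bp in Atm+/- and 26 to 43 bp in Atm+/+. The Atm-/- libraries are a set of their own with many undetermined bases, so genotype and set cannot be told apart. In sequences with no substituted base the Atm-/- medians of 66.5 to 89.5 bp lay within the range of Atm+/+, 29 to 168.5 bp. For short deletions the ranges overlapped those of Atm+/+: Atm-/- libraries had 73.5 to 78.1 deletions of 2 to 10 bp per 1e6 reads, Atm+/+ libraries 64.9 to 91.3 and Atm+/- libraries 79.3 to 90.7.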
